A study of Mus musculus with 8 samples.

Results

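The cumulus expansion matrix genes are 6 genes whose products build, cross-link or bind the hyaluronan coat that forms around the oocyte before ovulation: Has2, Tnfaip6, Ptx3, Vcan, Cd44 and Hapln1. They are 6 of 21631 protein-coding genes on chromosomes 1 to 19 and X, taken by name from their role in the matrix by a rule that uses no measured value. For each gene, every peak of open chromatin that touched the gene or the 50 kb on either side was taken, which gave 62 of the 98245 regions found in any of 8 libraries.

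The gonadotropin surge makes granulosa and cumulus cells lay down a matrix of hyaluronan. Hyaluronan is a long sugar polymer that is extruded at the cell surface, decorated with protein chains taken from blood plasma, and held together by cross-linking proteins. Follicles in which this coat fails to form release oocytes poorly.

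Granulosa cells were profiled by ATAC-seq, in which the transposase Tn5 cuts and tags DNA where chromatin is open, in 4 groups of 2 libraries, each a pool of 2 to 3 mice. All mice were 21 days old and had received 5 IU of eCG (PMSG), a hormone that drives follicle growth. The LH experiment used wild-type CBA x C57BL/6 F1 mice, with 2 libraries titled PMSG (collected 46 h after eCG) and 2 titled hCG (collected 6 h after a further 5 IU of hCG, which stands in for the LH surge). The PR experiment used the strain C.129S7(B6)-Pgrtm1Bwo/OmcJ, with 2 wild-type (WT) and 2 progesterone receptor knockout (KO) libraries, all collected after hCG. No cell-type limit of the knockout is given in the labels, and they do not say whether cumulus cells were kept apart from other granulosa cells. The time tags of the LH libraries run against their titles and source names (0 h on those titled hCG, 6 h on those titled PMSG), so every direction between them follows the titles.

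The 8 lists held between 55654 and 84313 intervals, and read depth is unknown. WT lists were the longest (80137 and 84313) and KO lists among the shortest (58851 and 55654), so the absence of a peak from KO cannot be told apart from a shorter list. PR libraries also differed within genotype: of the 8338 regions held by both PMSG libraries and neither hCG library, WT replicate 1 held 76.2% and WT replicate 2 held 45.6%, and KO replicates 1 and 2 held 20.8% and 34.1%. Of the granulosa markers that had a RefSeq start, 7 of 7 had an interval within 1 kb of it in every library, and of the oocyte markers 0 of 3 had one in any. Among other markers, Ptch1 (theca) and Kdr (endothelium) had one in all 8 libraries, while Insl3, Tek and the pan-leukocyte gene Ptprc had one in none. The macrophage marker Cd68 had one in both hCG libraries and in none of the other 6, and Pdgfra, a stromal marker, had one in WT replicate 1. The part of such cells in the results was not tested.

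In the LH experiment, regions held by both libraries of one group and by neither of the other were counted at the 6 genes. Of the 48 regions held by any LH library, 15 were hCG-only (31.25%, against 17.6% of all regions) and 4 were PMSG-only (8.33%, against 10.3% of all). The hCG-only regions lay at Vcan (7 of 17 regions), Hapln1 (4 of 6), Tnfaip6 (3 of 13), Cd44 (3 of 5) and Has2 (1 of 7), and Ptx3 had none among 4. Hapln1 and Vcan lie side by side on chromosome 13, 43.5 kb apart, and 5 regions, 4 between the genes and 1 inside Vcan, belong to both windows and were counted once in totals. Of the 4 hCG-only regions of Hapln1, 3 are also among the 7 of Vcan. With 55654 intervals from every list by fold, the hCG-only count was 11 of 43 (25.6%, against 15.3% of all) and the PMSG-only count 6 of 43 (14.0%, against 13.4%). Lists made equal by −log10 q instead gave 9 hCG-only of 44 (against 15.7% of all) and 5 PMSG-only (against 13.5%). Leaving out 1 LH library gave between 16 and 18 hCG-only regions of 46 or 47 (against 19.8% to 22.2% of all) and 5 PMSG-only regions (against 11.6% to 13.8%).

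**Figure D1:**
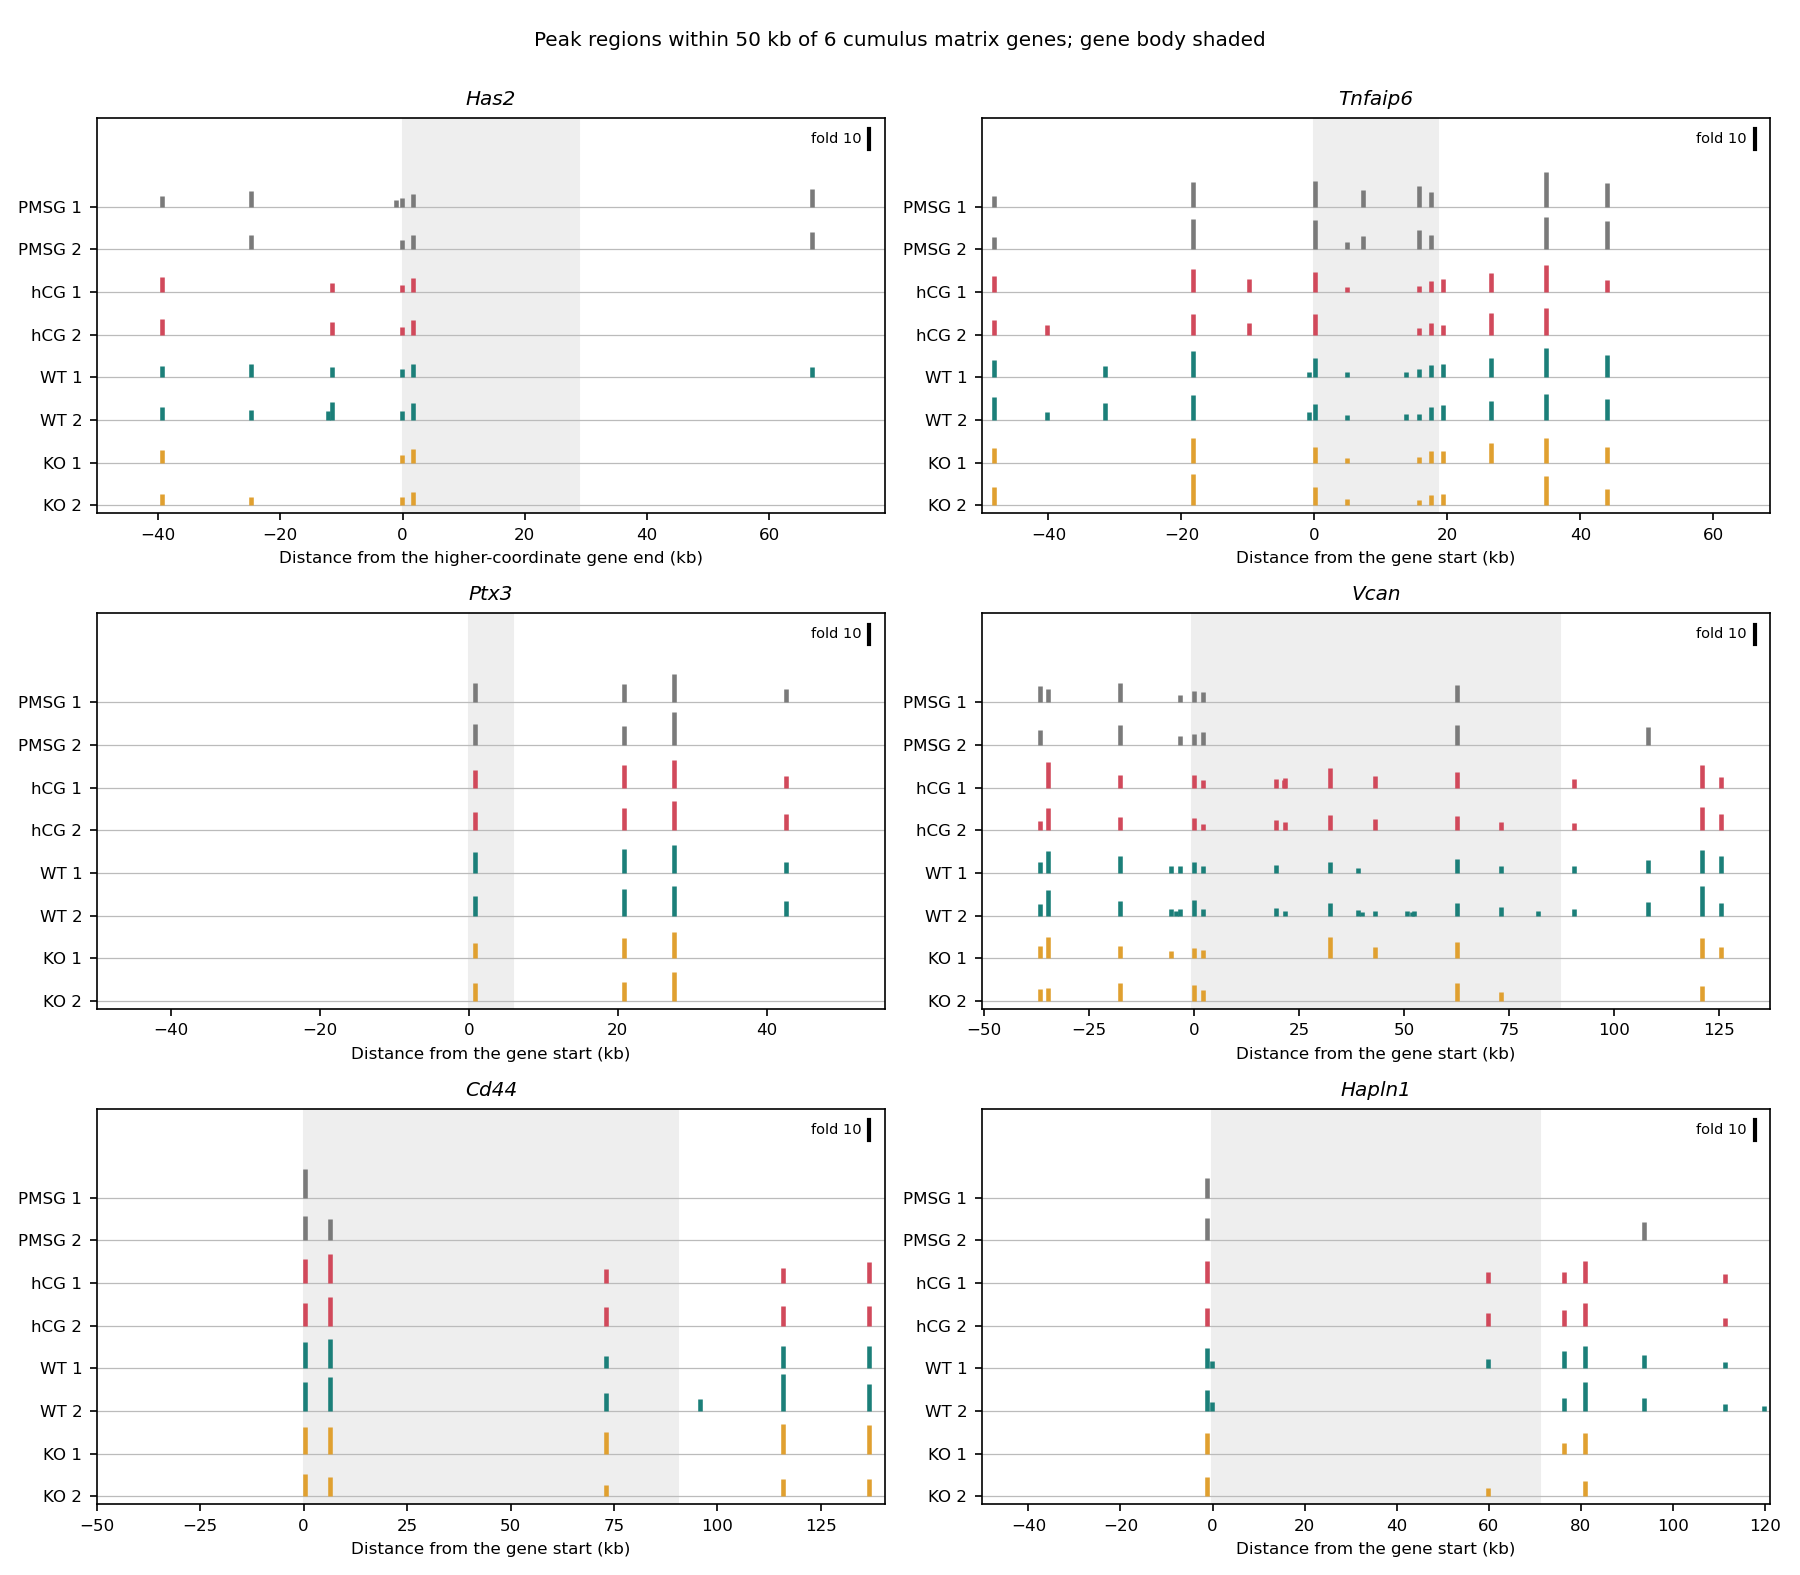
Peak regions within 50 kb of each gene in the 8 libraries. Each stroke stands at the middle of a region that the library holds, and its height is the authors' fold over background (scale bar, fold 10). The x axis is the distance in kb from the gene start (for Has2, from its higher-coordinate end), with the gene body shaded and positive values towards and past the gene's far end. The 3 regions at 73.2, 115.9 and 136.7 kb in the Cd44 panel stand in all hCG, WT and KO rows and in neither PMSG row.

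**Figure D2:**
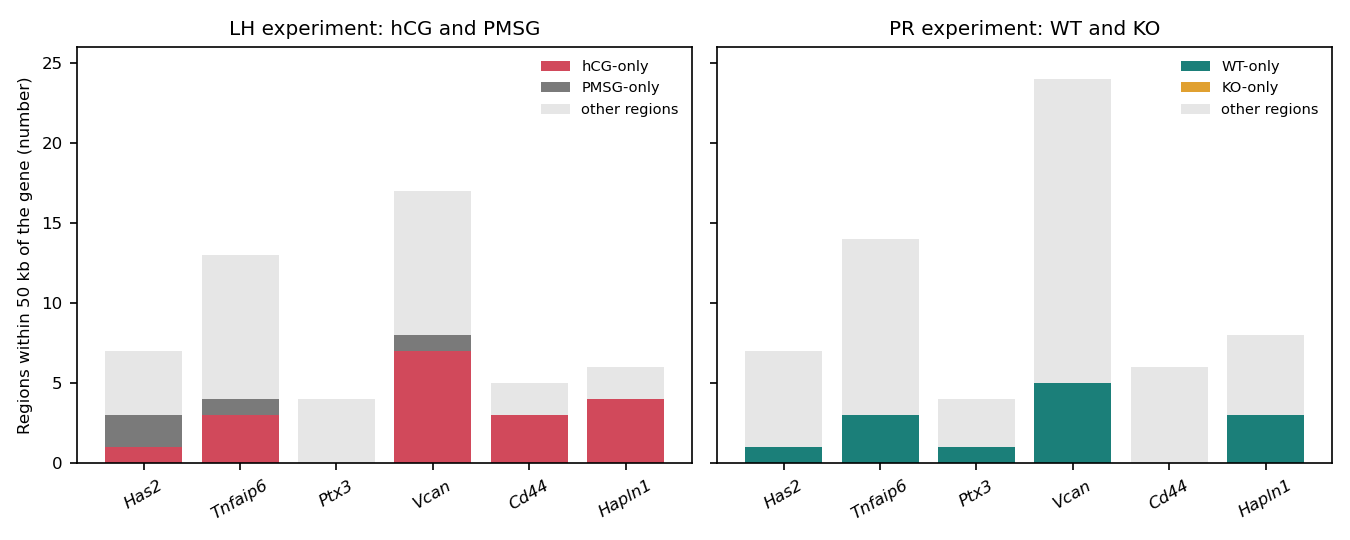
Number of regions within 50 kb of each gene that were held by both libraries of one group and neither of the other, stacked below the other regions (grey) held in that experiment. Vcan has the tallest coloured part in both panels (7 hCG-only and 1 PMSG-only region on the left, 5 WT-only on the right), and no KO-only region exists at any of the 6 genes.

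In the PR experiment, 11 of the 58 regions held by any library were WT-only (18.97%, against 12.1% of all regions) and 0 were KO-only (against 0.0802%). They lay at Vcan (5), Tnfaip6 (3), Hapln1 (3), Has2 (1) and Ptx3 (1), with 2 shared by Vcan and Hapln1, and Cd44 had none among 6. The count was lower in shorter lists. With 55654 intervals from every list by fold, 1 of 41 regions was WT-only (2.44%, against 4.26% of all) and 2 were KO-only (4.88%, against 4.15%). Both of these, at Vcan, were held by both WT libraries in whole lists, at folds (3.69 and 3.16, and 5.66 and 5.92) under the lowest fold kept in WT (5.81 and 6.12), which was higher than in KO (3.74 and 1.03). When the lists were made equal by −log10 q instead, 2 of 42 were WT-only (against 2.79% of all) and 1 was KO-only (against 2.49%). With all intervals, WT replicate 2 alone held 8 regions that no other library did, 6 of them at Vcan (regions held by 1 library were 10 of 62, or 16.1%, against 14.3% of all), and with WT replicate 1 left out 21 of 57 regions were WT-only, while the share over all regions rose to 24.9%.

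The experiments share no sample, so the fate of the 15 hCG-only regions could be followed in the PR libraries. Both WT libraries held 11 of them (73.3%, against 78.5% of all hCG-only regions) and both KO libraries held 5 (33.3%, against 41.5%). With lists of equal length, WT held 7 of 11 (63.6%, against 59.8%) and KO 5 of 11 (45.5%, against 46.2%), so both counts were near the share over all regions. In whole lists with KO replicate 2 left out, KO replicate 1 held 9 of the 15 (against 62.9% of all). At 5 regions, all 6 post-hCG libraries had a peak and neither PMSG library did (8.06% of 62, against 5.88% of all regions). These were 3 at Cd44, 1 at Tnfaip6 and 1 between Hapln1 and Vcan, and all 5 remained in lists of equal length by fold (10.4% of 48, against 5.18%). With lists equal by −log10 q 4 remained, and the region 73.2 kb into Cd44 did not. All 8 libraries held 17 of the 62 regions (27.4%, against 37.9% of all), and 13 of 48 in lists of equal length (27.1%, against 38.4%).

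Has2 makes the hyaluronan itself, from inside the plasma membrane. It occupies chr15:56665627-56694546 (mm10, that is GRCm38), and no other protein-coding gene enters its window. The region at its higher-coordinate end, chr15:56694407-56695012, was held by all 8 libraries, at the authors' fold of 4.28 and 4.64 in PMSG, 3.87 and 4.14 in hCG, 4.17 and 4.72 in WT and 3.72 and 4.20 in KO. These are low values that differ little between libraries. A stronger region just inside the gene, chr15:56692243-56693399, was likewise present throughout, at a fold between 6.52 and 8.85. Here and below, rank percentiles compare folds between libraries among the 55654 intervals of highest fold in each list, 100 being the highest. Cutting a longer list lowers the percentiles of the peaks that stay. WT lists were cut most, and KO replicate 2 was not cut. That inner region ranked at 20.7 and 25.7 in PMSG and at 27.4 and 28.9 in hCG, so the groups stood apart by a small step. In WT it ranked at 14.5 and 35.1 and in KO at 35.1 and 41.1. In whole lists WT and KO overlapped there (40.6 and 57.1 against 38.7 and 41.1).

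Farther out, Has2 had regions of both kinds. A region 67.0 kb from the higher-coordinate end and 37.9 kb past the lower one, chr15:56627389-56627735, had a fold of 9.03 and 8.76 in PMSG, no peak in hCG or KO, and 5.10 in WT replicate 1. Another, 24.8 kb beyond the higher-coordinate end at chr15:56719193-56719542, had 8.21 and 7.19 in PMSG and no peak in hCG, and was held at lower fold by WT replicate 1 (7.03), WT replicate 2 (5.06) and KO replicate 2 (4.38). Both were still PMSG-only in lists of equal length. The 1 hCG-only region, 11.6 kb beyond that end at chr15:56705822-56706454, had 4.43 and 6.78 in hCG and 5.30 and 9.52 in WT and no peak in PMSG or KO. It was also the gene's 1 WT-only region, but hCG replicate 1 and WT replicate 1 fell below the cut-off when lists were made equal, so neither call held there.

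Tnfaip6 (TSG-6) moves the heavy chains of inter-alpha-trypsin inhibitor onto hyaluronan. It lies on the plus strand at chr2:52038113-52056681. The 250 bases before its start are shown because the region over them ranked higher in PMSG than in hCG; capitals mark matches, on either strand, to the motifs searched, here GGGCGG once, CCAAT at both of its places and the AP-1 motif TGANTCA once. The RefSeq sequence (GRCm38.p6) runs from chr2:52037863-52038112, plus strand.
Tnfaip6: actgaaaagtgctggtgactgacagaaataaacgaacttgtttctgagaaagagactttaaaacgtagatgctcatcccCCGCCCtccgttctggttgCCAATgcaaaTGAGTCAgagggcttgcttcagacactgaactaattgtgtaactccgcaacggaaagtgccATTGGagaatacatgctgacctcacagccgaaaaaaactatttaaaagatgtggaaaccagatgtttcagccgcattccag

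The region over this start, chr2:52037674-52038694, was held by all 8 libraries. Its fold was 13.19 and 15.27 in PMSG, 10.09 and 10.66 in hCG, 10.12 and 8.27 in WT and 7.82 and 9.56 in KO. Both PMSG libraries stood above the other 6, and WT and KO overlapped. Its rank percentile was 75.6 and 83.6 in PMSG against 59.4 and 62.5 in hCG. The interval itself was narrower in PMSG (516 and 533 bp) than in hCG (619 and 618 bp), so fold and width went in opposite directions.

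A region 15.7 kb into Tnfaip6, chr2:52053619-52053960, showed a larger step of the same kind and was singled out after its values were seen. Its fold was 10.64 and 10.11 in PMSG, 3.30 and 3.27 in hCG, 4.16 and 3.21 in WT and 3.15 and 2.52 in KO. All 6 post-hCG libraries were at 4.16 or below and did not overlap the PMSG pair. Another intragenic region, 7.34 kb from the start at chr2:52045340-52045569, had 8.55 and 6.90 in PMSG and no peak in any of the other 6 libraries. It was the 1 region of 62 with this pattern (1.61%, against 1.68% of all regions; 2 of 48 in lists of equal length, against 4.19%).

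Past the far end of Tnfaip6 stood regions of both kinds. A region 19.3 kb from the start and just outside the gene, chr2:52057075-52057810, had no peak in PMSG and a fold of 6.50 and 5.18 in hCG, 7.06 and 7.87 in WT and 6.11 and 6.06 in KO. The best-ranked hCG-only region, 26.6 kb from the start at chr2:52064529-52064812, had 9.87 and 11.10 in hCG, 9.89 and 9.92 in WT and 10.15 in KO replicate 1, with no peak in PMSG or KO replicate 2. The third hCG-only region, 9.87 kb upstream, was held by no PR library. A region 48.3 kb upstream, chr2:51989619-51990100, was held by all 8, and ranked at 10.1 and 17.2 in PMSG against 42.9 and 31.9 in hCG. Regions that ranked higher in PMSG and regions that ranked higher in hCG thus stood at the same gene. A region 18.2 kb upstream, chr2:52019510-52020325, ranked at 79.1 and 69.1 in WT against 83.0 and 96.4 in KO. In whole lists WT and KO overlapped at this region (85.5 and 79.6 against 83.9 and 96.4). The best-ranked WT-only region, 31.5 kb upstream at chr2:52006533-52006673, had 5.61 and 9.03 in WT and was not WT-only in lists of equal length. Farther downstream, chr2:52072264-52073491 covers an end of the neighbouring gene Rif1, was held by all 8 and ranked at 94.2 and 90.0 in PMSG against 86.9 and 85.9 in hCG. Inside Rif1, chr2:52081897-52082411 had a fold of 11.998 and 14.70 in PMSG, 6.30 in hCG replicate 1, no peak in hCG replicate 2, 11.30 and 10.92 in WT and 8.14 and 8.43 in KO.

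Ptx3 is a pentraxin whose multimers tie the heavy chains on separate hyaluronan strands together. It lies on the plus strand at chr3:66219887-66225806, within the larger gene Veph1, which covers all 4 of its regions. The region over its start, chr3:66219753-66221526, was present throughout, with a fold of 10.07 and 10.62 in PMSG, 8.90 and 9.56 in hCG, 10.58 and 10.08 in WT and 7.62 and 9.07 in KO. Its intervals were 1177 and 1140 bp in PMSG and 1736 and 1714 bp in hCG. PMSG libraries were thus narrower and ranked slightly higher (54.9 and 56.2 against 48.1 and 52.5). A region 20.9 kb past the start, chr3:66240561-66240973, went the other way in rank, at 50.9 and 49.5 in PMSG, 71.6 and 69.9 in hCG, 72.7 and 74.4 in WT and 66.9 and 68.0 in KO. PMSG was lowest, and WT stood above KO by a narrow margin. At 27.5 kb, chr3:66247036-66247834, the strongest of the 4 ranked at 83.4 and 89.9 in PMSG, 89.0 and 92.7 in hCG, 82.8 and 82.5 in WT and 87.5 and 92.2 in KO. A weak region at 42.6 kb was WT-only (5.61 and 7.74) in whole lists alone, and 1 PMSG and both hCG libraries held it too.

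Vcan encodes versican, a large proteoglycan that binds hyaluronan and is cut by Adamts1 in the expanding cumulus. It lies on the minus strand at chr13:89655309-89743027. Its promoter is shown for comparison with that of Tnfaip6, with matches to GGGCGG (near each end) and CCAAT in capitals, as the RefSeq sequence (GRCm38.p6) of chr13:89742513-89742762, minus strand.
Vcan: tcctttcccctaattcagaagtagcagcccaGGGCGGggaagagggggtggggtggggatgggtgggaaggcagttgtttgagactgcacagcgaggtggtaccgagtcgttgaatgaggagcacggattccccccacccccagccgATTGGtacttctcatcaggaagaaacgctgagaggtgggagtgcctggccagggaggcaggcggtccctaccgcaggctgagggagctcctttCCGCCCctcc

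Promoters of 5 members matched the RefSeq table (Has2 had none to match), and 10 motifs were searched in the 250 bases before each start, on both strands. CCAAT and GGGCGG were found at Tnfaip6 and Vcan, and in 34.5% and 32.9% of 27025 promoters. TGANTCA, the AP-1 motif, was found at Tnfaip6 and in 6.87% of promoters, and TGTGGT, the RUNX motif, at Hapln1 and in 14.2%. Absent from these windows of the 5 members were TGACGTCA (in 1.62% of all promoters), TGACG (17.9%), TTGCGCAA (0.170%), AAGGTCA (4.05%), TATAAA (13.0%) and the palindromic steroid receptor element (0.0407%). TGACG is part of TGACGTCA, so those counts overlap. Cd44 and Ptx3 held none of the 10.

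The region over the Vcan start, chr13:89742168-89743015, was held by all 8 libraries, with a fold of 5.92 and 5.47 in PMSG, 6.37 and 6.07 in hCG, 5.56 and 7.97 in WT and 5.42 and 8.0 in KO. Replicates of WT and of KO differed more than the groups did. A region 17.7 kb upstream, chr13:89759357-89761086, ranked at 52.6 and 51.5 in PMSG against 22.5 and 25.0 in hCG. WT and KO spread widely there, at 37.9 and 19.5 and at 22.3 and 62.6. In the gene body, chr13:89679131-89680510 ranked at 43.7 and 55.1 in PMSG, 37.5 and 28.2 in hCG, 18.5 and 7.1 in WT and 47.1 and 62.4 in KO. Both KO libraries thus stood above both WT libraries and both PMSG above both hCG. Just upstream of the start, chr13:89745789-89746017 was held weakly by PMSG (3.97 and 4.47) and WT (3.55 and 3.19) and by no hCG or KO library.

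The 7 hCG-only regions of Vcan were mostly weak or uneven. At 32.4 kb into the gene, chr13:89709939-89710295 had a fold of 10.07 and 8.0 in hCG, 5.63 and 6.42 in WT, 10.78 in KO replicate 1 and no peak in PMSG or KO replicate 2. At 19.5 kb, chr13:89722750-89723257 had 4.24 and 5.21 in hCG and 4.04 and 3.89 in WT and no peak in PMSG or KO. A broad stretch past the gene's far end, chr13:89651509-89652465, followed the same pattern, with 4.40 and 3.84 in hCG and 3.30 and 3.57 in WT, over 888, 807, 736 and 920 bp. These last 2 regions and the outer one at Has2 are the 3 that were both hCG-only and WT-only (20% of the 15 and 27.3% of the 11; over all regions, 16.6% of the hCG-only and 21.5% of the WT-only). None of the 3 kept either call in lists of equal length by fold. A WT-only region between the genes, chr13:89634256-89634421 (6.63 and 6.94 in WT, 9.47 in PMSG replicate 2), was the 1 that remained WT-only in lists equal by fold. It was not WT-only in lists equal by −log10 q. The WT-only regions there were chr13:89722750-89723257 and chr13:89745789-89746017, so no region kept the call in both.

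Hapln1 is the link protein that locks proteoglycans such as versican onto hyaluronan. It lies on the plus strand at chr13:89540529-89611832. The last 127 of the 250 bases before its RefSeq start, in capitals here, were covered by an interval in WT replicate 1, with a fold of 3.70, and WT replicate 2 had one of 4.44; the other 6 libraries had none there. The sequence (RefSeq, GRCm38.p6) is chr13:89540386-89540635, plus strand.
Hapln1: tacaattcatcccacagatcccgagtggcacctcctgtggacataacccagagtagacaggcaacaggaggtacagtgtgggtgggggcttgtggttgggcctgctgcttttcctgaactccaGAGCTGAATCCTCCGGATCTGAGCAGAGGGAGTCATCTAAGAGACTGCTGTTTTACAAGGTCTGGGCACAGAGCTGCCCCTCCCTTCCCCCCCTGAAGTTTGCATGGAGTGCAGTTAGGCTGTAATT

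These intervals were weak, and neither passed the cut-off in lists of equal length. The nearest strong region, 1.20 kb upstream at chr13:89539141-89539738, was held by all 8, with a fold of 10.36 and 11.63 in PMSG, 11.42 and 9.21 in hCG, 10.61 and 10.94 in WT and 10.48 and 9.72 in KO. Its values overlapped between hCG and PMSG. By rank KO (65.6 and 66.4) stood above WT (57.8 and 54.0), but both WT folds were above both KO folds. In whole lists WT also ranked above KO (70.7 and 69.6 against 67.5 and 66.4). Between the genes, 9.57 kb past Hapln1, chr13:89621406-89621673 had no peak in PMSG and 11.60 and 11.80 in hCG, 11.65 and 15.13 in WT and 10.42 and 7.78 in KO. It ranked at 66.1 and 81.2 in WT against 65.2 and 50.7 in KO, a margin of under 1 percentile between the nearest pair. Near it, chr13:89616814-89617123 was held by hCG, WT and KO replicate 1, and a region 59.8 kb into Hapln1 by both hCG libraries, WT replicate 1 and KO replicate 2.

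Cd44 is the cell-surface receptor that anchors the matrix to the cell. It lies on the minus strand at chr2:102811141-102901669. The region over its start, chr2:102900961-102901885, was held by all 8 libraries, with a fold of 15.06 and 12.64 in PMSG, 12.28 and 11.94 in hCG, 13.48 and 15.12 in WT and 13.74 and 11.72 in KO. Ranks overlapped there between hCG and PMSG and between WT and KO. The next region, 6.41 kb into the gene at chr2:102894952-102895565, had no peak in PMSG replicate 1 and 10.87 in PMSG replicate 2, against 15.03 and 14.55 in hCG, 15.19 and 17.73 in WT and 13.71 and 10.22 in KO. KO replicate 2 was below PMSG replicate 2 here.

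At 73.2 kb into Cd44, chr2:102828307-102828681 had no peak in PMSG and a fold of 7.09 and 9.81 in hCG, 6.42 and 9.52 in WT and 11.13 and 5.59 in KO. Past its far end, inside the neighbouring glutamate transporter gene Slc1a2, chr2:102785558-102786002 had no peak in PMSG and 7.72 and 10.38 in hCG, 11.42 and 19.15 in WT and 15.41 and 8.88 in KO. Also inside Slc1a2, chr2:102764796-102765173 had none in PMSG and 10.63 and 9.95 in hCG, 11.62 and 13.69 in WT and 14.55 and 9.0 in KO. At all 3, WT and KO overlapped, and WT replicate 2 and KO replicate 1 were above the other replicate of their genotype. Each of those replicates also held fewer of the PMSG-only regions of the whole genome than the other of its genotype. Which of the 2 genes these regions act on, if either, is not in the lists. Cd44 is also made by leukocytes. Cd68 had its start interval in hCG but in neither WT nor KO, and Ptprc had none in any library. The part of leukocytes in the values of these regions, in any library, was not tested.

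**Figure D3:**
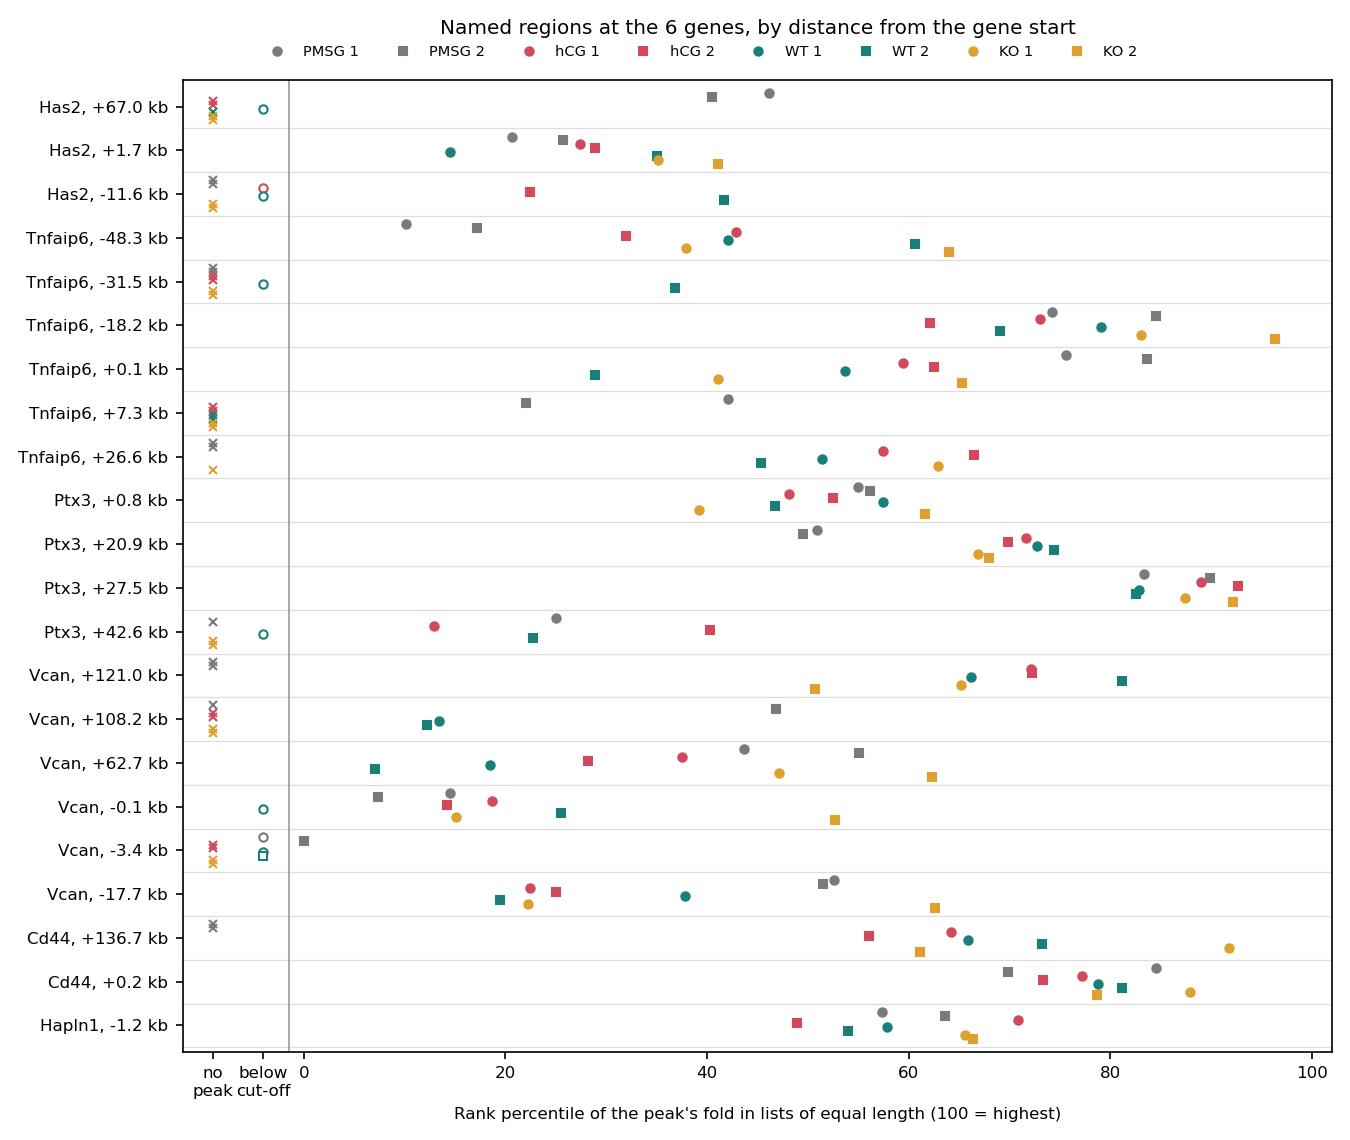
Rank percentile of the fold in 55654 intervals per list (x axis, 100 highest) for the named regions, 1 row each, with the gene and the distance from its start in kb (Has2: from its higher-coordinate end). Circles are replicates 1 and squares replicates 2; open symbols are peaks below the cut-off and crosses are libraries with no peak. At Cd44 +136.7 kb and Vcan +121.0 kb the PMSG libraries have no peak and the other 6 lie above 50.

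Regions held by all 4 libraries of an experiment can be compared by rank. At the 6 genes, 14 such regions of the LH experiment passed the cut-off. Both hCG ranks lay above both PMSG ranks at 3 (21.4%, against 27.8% of all such regions) and below at 7 (50%, against 45.5%). The median difference, hCG minus PMSG, was -3.62 percentiles at the 6 genes and -3.49 over all regions. In the PR experiment, WT lay above KO at 2 of 21 (9.52%, against 11.0%) and below at 6 (28.6%, against 19.9%). The median, WT minus KO, was -6.89 at the 6 genes and -1.88 over all. By width, 11 of 17 regions were wider in both hCG libraries (64.7%, against 64.2%) and 2 in both PMSG libraries (11.8%, against 11.8%). Between genotypes 7 of 28 were wider in both KO libraries (25%, against 5.89%) and 3 in both WT libraries (10.7%, against 34.8%). The 7 lay at Tnfaip6, Vcan and Ptx3, with that at chr2:52081897-52082411 inside Rif1. None lay at Has2, Cd44 or Hapln1.

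The length covered by peaks in each gene's window was set against the library's total covered length. At Hapln1 this share was 19.2 and 21.5 bp per Mb in PMSG, 61.8 and 60.1 in hCG, 54.9 and 55.4 in WT and 24.5 and 29.0 in KO. Both hCG and WT were apart from PMSG and KO, with a ratio of 3.00 for hCG over PMSG and 2.06 for WT over KO. Over 18130 genes the hCG share was higher, with groups apart, at 35.2% and the PMSG share at 39.1%. In the PR experiment, WT was higher at 16.8% of 18208 genes and KO at 37.5%. A ratio as high as that of Hapln1 was seen at 0.177% of genes in the LH and 0.478% in the PR experiment. The windows of Hapln1 and Vcan share 5 regions, so these ratios do not belong to Hapln1 alone. Among the shared regions is the broad stretch past the end of Vcan. Without that region, a comparison added after the values were seen, the ratios were 1.92 and 1.35. In lists of equal length the groups were still apart, but hCG minus PMSG fell from 40.6 to 21.5 bp per Mb and WT minus KO from 28.4 to 6.71.

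At Cd44 the share was 19.9 and 32.8 bp per Mb in PMSG, 53.8 and 56.0 in hCG, 43.5 and 58.5 in WT and 57.7 and 59.0 in KO. The hCG libraries stood above PMSG at a ratio of 2.09, reached by 0.866% of genes, and WT and KO overlapped. At Vcan it was 158 and 154 in PMSG, 197 and 219 in hCG, 212 and 267 in WT and 198 and 211 in KO. The groups were apart in both experiments, at ratios of 1.33 and 1.17, but lists of equal length took hCG minus PMSG from 52.1 to 10.07 bp per Mb and turned the PR direction, with WT minus KO at -91.6. A ratio as high as 1.33 was seen at 8.75% of genes in the LH and one as high as 1.17 at 10.8% in the PR experiment. Without the stretch past its far end, WT and KO overlapped at Vcan (ratio 1.08) and the hCG to PMSG ratio was 1.19. In whole lists with that stretch, WT minus KO at Vcan was 35.0 bp per Mb. It was 7.38 without WT replicate 2 and 62.5 without WT replicate 1. At Ptx3, hCG was above PMSG (78.0 ± 0.724 against 67.1 ± 0.917, mean ± SD, n = 2), at a ratio of 1.16 that 20.7% of genes reached, and KO was above WT (75.3 ± 6.29 against 61.4 ± 4.03), at a WT to KO ratio of 0.815 that was as low at 6.59% of genes. In lists of equal length WT and KO overlapped at Ptx3, with WT minus KO at -8.94 bp per Mb (-13.9 in whole lists). At Tnfaip6 the LH groups overlapped, and KO was above WT (151 ± 19.1 against 115 ± 11.03), at a WT to KO ratio of 0.762 that was as low at 2.27% of genes. At Has2, PMSG was above hCG (73.4 ± 11.4 against 55.9 ± 6.55), at an hCG to PMSG ratio of 0.761 that was as low at 9.38% of genes, and WT was above KO (67.0 ± 1.31 against 57.4 ± 8.54), at a ratio of 1.17 that 11.1% of genes reached. Lists of equal length turned WT minus KO at Has2 from 9.55 to -3.99 bp per Mb, and WT and KO then overlapped. In plain covered bp, not set against the library's total, the groups overlapped at Has2 between PMSG and hCG (2433 and 1952 against 1998 and 2309). WT and KO overlapped in plain bp at Tnfaip6 (4722 and 5374 against 5361 and 5218) and at Ptx3 (2570 and 2803 against 2757 and 2525). With 2 libraries a group, the two-sided exact permutation p was 0.33 for every one of these comparisons in which the groups were apart, the smallest that 4 libraries allow.

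**Figure D4:**
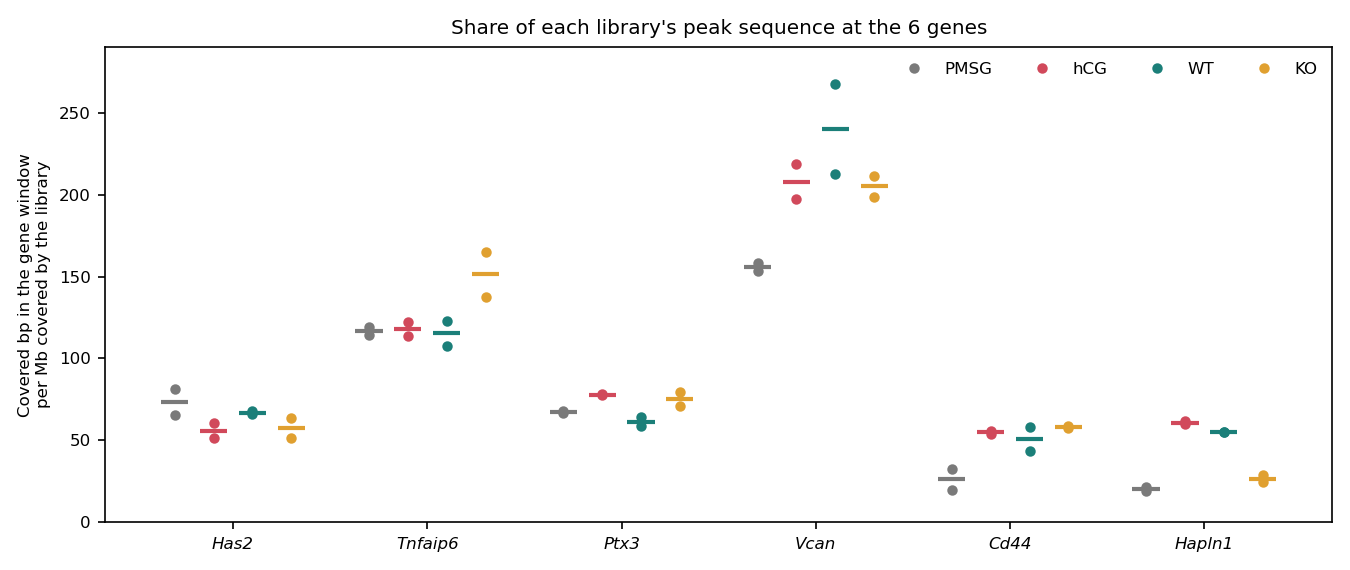
Covered length within 50 kb of each gene, in bp per Mb of sequence covered by the library (y axis from 0), for the 2 libraries of each group (points) and their mean (bar). At Hapln1, hCG and WT lie between 54.9 and 61.8 and PMSG and KO between 19.2 and 29.0; at Cd44 both PMSG points, at 19.9 and 32.8, lie below the other 6.

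The same counts were made for 34 other genes of hyaluronan synthesis, transport, binding and breakdown, of versican cleavage and of the pentraxin family, with 283 regions outside the 6 windows. Of the 238 held in the LH experiment, 40 were hCG-only (16.8%, near the 17.6% of all regions) and 16 PMSG-only (6.72%, against 10.3%). Of the 270 in the PR experiment, 32 were WT-only (11.9%, against 12.1%) and 2 KO-only (0.741%, against 0.0802%). In lists of equal length 7 of 219 were WT-only (3.20%, against 4.26%) and 8 KO-only (3.65%, against 4.15%). The most group-only regions in the LH experiment were at Adamts9, a metalloprotease (5 hCG-only and 2 PMSG-only of 20), Stab2, a hyaluronan scavenger receptor (5 and 0 of 11), and Itih5, a relative of the hyaluronan-bound heavy chains (2 and 3 of 16). In the PR experiment they were at Itih3 and Itih4 (3 WT-only and 1 KO-only each), which share 9 regions, and at Lyve1, a hyaluronan receptor of lymphatic endothelium (4 and 0 of 17). In lists of equal length Itih3, Itih4 and Lyve1 had 0 WT-only regions.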

How the data were processed

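The rule for the 6 genes uses no measured value, but the members and lists were chosen with earlier results of these data known. Per the submitters' processing notes, which give names without roles or versions, Bowtie2, MACS2 and the build mm10 were used; filters and Tn5 shifting are not given in the sources used here. The authors deposited 1 peak list per library. Fold here means column 7 as the authors deposited it, taken as fold enrichment over the caller's background, a ratio within a library. Columns 8 and 9 are deposited as −log10 p and −log10 q (10 or more in every list), and the deposited score in column 5 was not used. Peak names in the PR files mention filtering and marked duplicates and those in the LH files do not; whether the steps differed is not given in the sources used here.

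Summits sharing an interval were joined, keeping the best fold and q. Intervals of all 8 libraries that shared 1 bp were merged into regions. A library held a region with any interval in it. Ranks, and counts said to be from lists of equal length, used the 55654 intervals of highest fold per list, the size of the shortest. Genes, starts and promoters came from RefSeq (GRCm38.p6). Named regions were, per gene, the one over the start, the best-ranked group-only region and the region with the largest rank difference in each direction; other genes were named for the 3 largest counts of group-only regions, and a few regions singled out after their values were seen complete the account. Replicates are pools of separate mice. Presence, rank and width calls carry no test. The code that makes the calls was checked on simulated lists with known answers (Python 3.11.15, pandas 2.3.3).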

Additional observations from a re-analysis of the deposited data

How the results depend on the processing

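Counts over the 6 genes (hCG-only 15, PMSG-only 4, WT-only 11, KO-only 0, rank higher in hCG 3, PMSG 7, WT 2, KO 6, and hCG-only regions held by both WT 11 and both KO 5) moved with list length, window and library, and depth is unknown. Lists equal by fold gave 1 WT-only and 2 KO-only regions, and 7 hCG-only regions held by both WT. They drop intervals of low fold: the Has2 end region and the one 15.7 kb into Tnfaip6, held by all 8 whole lists, become PMSG-only there. Lists equal by −log10 q gave 9 hCG-only of 44 (15.7% of all regions), 2 WT-only and 1 KO-only of 42 (2.79% and 2.49%), with 6 of 9 held by both WT (60.1%). A −log10 q of 20 or more gave 3 of 17 ranked higher in KO (18.3% of all). The top 20000 intervals gave 4 hCG-only, 2 PMSG-only of 13 (17.1% and 16.0% of all regions) and 0 WT-only and 1 KO-only of 14 (2.23% and 1.98% of all). Ranks there were higher in hCG at 0 and in PMSG at 1 of 3 (21.3% and 44.1% of all). They were higher in WT at 1 and in KO at 2 of 6 (11.6% and 15.5%). Both WT held 3 and both KO 2 of the 4 hCG-only regions (54.6% and 40.5% of all). Asking a library to cover 50% of a region left 1 of 10 ranked higher in hCG (22.2% of all). Gene bodies alone, which hold fewer regions, gave 6 hCG-only and 1 PMSG-only of 21 (17.6% and 10.3% of all) and 4 WT-only of 27 (12.1%). Ranks in gene bodies were higher in hCG at 1 and in PMSG at 4 of 7 (27.8% and 45.5% of all). They were higher in WT at 0 and in KO at 3 of 8 (11.0% and 19.9%). Both WT held 3 and both KO 1 of the 6 hCG-only regions (78.5% and 41.5% of all). Flanks of 20 kb gave 2 PMSG-only of 35 (10.3% of all), and both KO held 3 of 13 hCG-only regions (41.5% of all). Merging within each experiment left the group-only and rank counts as they were, and was not run for regions held by WT or KO. Leaving out 1 library gave 12 to 21 WT-only (21 without WT replicate 1), 4 to 6 ranked higher in hCG, 3 to 7 in WT and 8 to 12 in KO (both highest without KO replicate 1), and 5 to 9 held by both KO; shares over all regions rose too, to between 16.0% and 24.9% WT-only, and for ranks to between 33.1% and 35.8% in hCG, 23.4% and 29.2% in WT and 36.2% and 44.8% in KO. With the replicate number as a block, 5 of 14 ranked higher in hCG (31.3% of all) and 7 of 21 in KO (31.3% of all); same-numbered libraries shared only a number (correlation of deviations 0.0379 in LH and -0.0463 in PR), and the smallest block p is 0.5. Covered shares changed sign in 8 cases, whose causes were not tested. For WT minus KO these were Has2 (9.55) and Vcan (35.0), at -3.99 and -91.6 bp per Mb in equal lists, Ptx3 (-13.9), at 45.5 in plain bp, and Cd44 (-7.39), at 173.5 in plain bp, 3.18 in equal lists and -14.9 to 0.0916 with 1 library left out. Ptx3 and Has2 also lost their separation of WT from KO in equal lists, and Ptx3 in plain bp. For hCG minus PMSG the change of sign was at Tnfaip6 (1.39), at -2.89 to 5.68 with 1 library left out.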
